A study of Drosophila melanogaster with 4 samples.

Results

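The 10 genes described here, PCNA, Mcm2, Mcm3, Mcm5, Mcm6, Mcm7, Orc1, dup, RnrL and RnrS, encode parts of the DNA replication machinery and belong to the S-phase genes that the transcription factor E2F is known to regulate. They were chosen by name from 13922 protein-coding genes on the main chromosome arms. No measured value entered the choice, but earlier results of these data were known. The gene window was the gene's span in the RefSeq annotation of genome release 6 plus 1000 bp on each side, and every called peak overlapping a window was counted. All 10 genes were found in the annotation. Of the peaks on the main arms, 12 of 25528 lay in the windows in mutant 1, 12 of 25985 in mutant 2, 16 of 29341 in control 1 and 14 of 29923 in control 2.

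The data are ATAC-seq peak lists, in which a transposase marks open DNA, from Drosophila melanogaster thoracic muscle enriched for flight muscle. The mutant libraries (2, from the single line 12) carried Pgk ΔE2F in a w1118 background, an allele with the E2F site upstream of the glycolytic gene Pgk mutated, and the control libraries (2) were w1118. All animals were pharate, 96 h after pupa formation at 25 °C, with no treatment, and each library pooled at least 40 animals. The mutated site lies at Pgk, so none of the 10 genes carries the mutation, and the question put here is where these E2F targets are accessible in this tissue and whether the calls differ between the genotypes.

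E2F binds DNA as a dimer with Dp. In Drosophila E2f1 activates S-phase genes, E2f2 acts as a repressor, and the retinoblastoma family protein Rbf holds E2f1 in check. Orc1, as part of the origin recognition complex, and Dup, the fly Cdt1, help to load the Mcm2-7 helicase onto replication origins; the helicase then opens the DNA, PCNA clamps the polymerase to it, and ribonucleotide reductase, made of the large subunit RnrL and the small subunit RnrS, supplies deoxynucleotides. The nuclei of flight muscle fibres have left the cell cycle by this age.

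The lists were not of equal depth by the proxy available. The recovered background, a proxy for depth, was 4.62 and 5.26 fragments per position in mutants 1 and 2, against 7.44 and 7.61 in controls 1 and 2, which puts the average of the mutants at 65.6% of that of the controls. By this proxy every control was deeper than every mutant. Counts of calls were also taken from lists adjusted for depth, which keep the peaks that would still pass at the background of mutant 1. All 10 flight muscle markers looked up, Act88F, fln and Mhc among them, had a region called in every library in their window. So did 7 of 11 markers of neurons, glia, hemocytes, trachea, fat body and epidermis, the jump muscle marker Act79B, and 48.8% of all protein-coding genes. A gene with many peaks, such as sls with 14 to 23, meets this more readily. Within 500 bp of a gene end the counts were 8 of 10 and 5 of 11, against 38.0% of protein-coding genes. The cell make-up of the tissue was not tested. Since nuclei of the whole dissected tissue were pooled, fewer open nuclei and less opening per nucleus cannot be told apart either.

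Overlapping peaks of the 4 lists were joined into merged regions, 24 of which touched a window of the 10 genes. Of these, 8 regions were called in all 4 libraries (constant regions below) and they lay at 6 genes: PCNA, Mcm2, Mcm6, Mcm7, Orc1 and dup. Mcm3, Mcm5, RnrL and RnrS had no such region. Among all protein-coding genes, 48.8% had a region called in all 4 libraries in their window, and among the 6777 genes within the length range of these 10 (1130 to 4370 bp) the share was 44.1%. The regions called in all 4 libraries were 8 of 24 at these genes, against 29.3% of the regions in the windows of protein-coding genes.

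**Figure D1:**
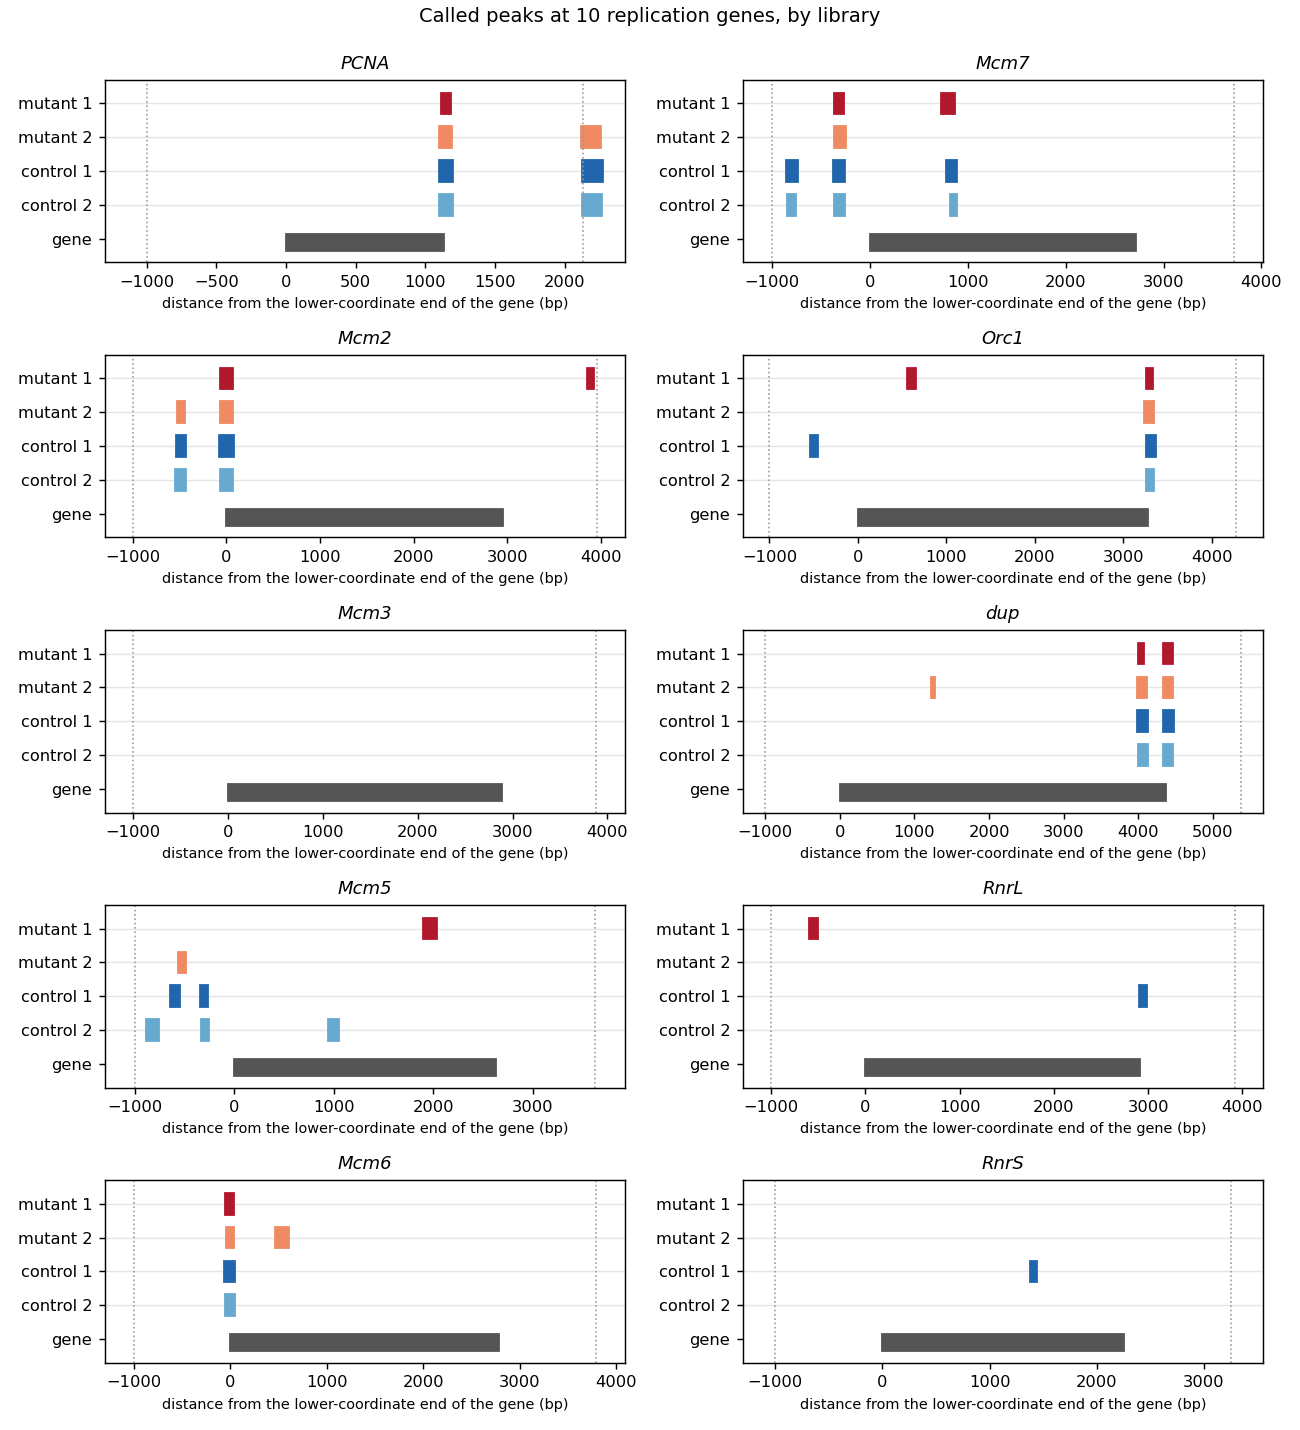
Peaks called at each of the 10 genes in mutants 1 and 2 and controls 1 and 2 (coloured boxes, 1 row per library), with the gene as a grey bar. The horizontal axis is the distance in bp from the end of the gene with the lower coordinate, and dotted lines mark the 1000 bp limits of the window. Stacks of 4 boxes stand at 1 end of PCNA, Mcm2, Mcm6, Mcm7, Orc1 and dup, and Mcm3 has no box.

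dup, which helps to load the helicase (2R:15376619-15380988), held the strongest region of the set, at 2R:15380947-15381098. Its summit lay on the right border of the gene, that with the higher coordinate, inside SRPK, a kinase gene that overlaps the last 265 bp of dup. The authors' fold enrichment there, the signal at the summit over the library's own local background, was 15.1 and 15.3 in mutants 1 and 2, against 18.5 and 15.3 in controls 1 and 2. Fold enrichments are given here for each library side by side and were not compared between the genotypes, since the lists differ in the proxy for depth. With the peaks of a list ordered by −log10 p, position 1 being the strongest, the peak stood at position 475 and 990 in the mutant lists and at 903 and 1171 in the control lists, within the top 1.86% to 3.91% of each. The positions of the genotypes overlapped. A second region, 2R:15380597-15380751, lay inside dup with its summit 340 bp from the same border and also overlapped SRPK, so neither can be assigned to dup alone. It was weaker, at positions 11812 and 8939 in the mutants, against 7229 and 8460 in the controls.

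Orc1, the largest subunit of the origin recognition complex (2R:7522437-7525716), was called in every library at its right border, 2R:7525674-7525803, with the summit 24 bp outside the gene. Fold enrichment was 4.14 and 7.77 in mutants 1 and 2, against 7.95 and 5.75 in controls 1 and 2. Its positions were 9489 and 4764 in the mutants, against 6129 and 7858 in the controls, so the mutants stood on both sides of the controls. The left end, where the gene overlaps PIG-G by 105 bp, had only a call in control 1, 546 to 454 bp before the gene, and a call inside Orc1 was made in mutant 1 alone.

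The 5 helicase genes fell into 3 patterns. Mcm2 and Mcm6 were called in every library on their left border. Mcm7 was called in every library 251 to 374 bp before its left end. Mcm3 and Mcm5 had no region common to the libraries.

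Mcm2 (3R:8264970-8267924) had its constant region at 3R:8264888-8265044, with the summit 22 bp outside the gene. Fold enrichment was 6.69 and 6.42 in mutants 1 and 2, against 10.1 and 7.64 in controls 1 and 2, and the positions were 4245 and 7504 in the mutants, against 4593 and 5610 in the controls. By position, mutant 1 ranked this region highest and mutant 2 lowest. By share of the list control 1 stood first, at the top 15.7%, against 16.6% in mutant 1. On the same side, 518 bp away, lies RPA1, which encodes the large subunit of the single-strand binding protein of replication. A region touching the near end of RPA1, 547 to 434 bp before Mcm2, was called in mutant 2 and both controls and not in mutant 1, with fold enrichments of 4.79 in mutant 2 and 8.40 and 5.72 in controls 1 and 2. Regions lacking a call only in mutant 1 made up 9.35% of the regions in all windows of protein-coding genes and were 1 of 24 here.

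Mcm6 (X:6674387-6677176) was called at X:6674326-6674433, with the summit 9 bp outside its left border. Fold enrichment was 5.21 and 4.30 in mutants 1 and 2, against 8.11 and 5.88 in controls 1 and 2. The positions were 7066 and 13895 in the mutants, against 5669 and 7774 in the controls, so by position the genotypes overlapped and mutant 2 stood lowest. By share of the list both mutants stood lower, at the top 27.7% and 53.5% in mutants 1 and 2, against 19.3% and 26.0% in controls 1 and 2. A weak call inside the gene, in mutant 2 alone, was within the last 1% of its list (top 99.3%).

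Mcm7 (3L:8891596-8894310) had its constant region at 3L:8891222-8891345, in the 403 bp between dally, a heparan sulfate proteoglycan gene, and Mcm7, overlapping no annotated gene. Fold enrichment was 6.40 and 5.27 in mutants 1 and 2, against 8.77 and 7.55 in controls 1 and 2, and the positions were 5441 and 10998 in the mutants, against 6281 and 6371 in the controls. By position the mutants again stood on both sides of the controls. By share of the list mutant 1, at the top 21.31%, stood between control 2 (21.29%) and control 1 (21.41%). A region inside Mcm7, which also overlaps the antisense gene asRNA:CR45871, was called in mutant 1 and both controls. It was weak in each, within the top 69.8% of the list of mutant 1 and the top 91.1% and 90.1% of those of controls 1 and 2.

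Mcm5 (3R:10788524-10791150) had a peak in its window in every library, but 5 different regions made up those calls and none was shared by more than 2 libraries. One region, 343 to 254 bp before the left end and touching Art1, a protein arginine methyltransferase gene, was called in both controls and in neither mutant. Its fold enrichment was 5.45 and 4.79 in controls 1 and 2, within the top 39.7% and 38.8% of their lists, and the recovered summit pileup was 45 and 41 fragments. Mutant 1 was called only inside Mcm5, and mutant 2 only at a region 640 to 480 bp before the gene that control 1 shared.

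Mcm3 (X:5323855-5326738) had no peak in its window in any library, which was so for 17.5% of protein-coding genes. A region called in all 4 libraries lay just past the limit, ending 1022 bp before the left end of Mcm3 and overlapping no gene (X:5322715-5322833). Its fold enrichment was 9.70 and 13.6 in mutants 1 and 2, against 15.0 and 13.3 in controls 1 and 2, within the top 5.90% to 8.25% of each list. Its link to Mcm3 was not tested. The remaining helicase subunit, Mcm4, is encoded by dpa, which is not among the 10 genes and was looked up after the other values were seen; it had a region at a gene end called in all 4 libraries.

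PCNA, the sliding clamp (2R:20261754-20262883), was called in every library at its right border, 2R:20262849-20262949, with the summit 18 bp outside the gene in the 74 bp that separate it from plu, a gene needed to control S phase in early embryos. Fold enrichment was 4.68 and 7.77 in mutants 1 and 2, against 11.4 and 9.53 in controls 1 and 2. The recovered summit pileup was 35 and 65 fragments over a local background of 6.70 and 7.49 in the mutants, and 125 and 115 fragments over 10.1 and 11.2 in the controls. Both mutants stood lower in their lists, at positions 7673 and 4323, than both controls, at 3107 and 3134, and mutant 1 lay farthest from the rest. The second constant region of the window lay at its far edge and overlaps RpS18, a ribosomal protein gene; the peak of mutant 1 began 1 bp past the limit. It was ordered likewise, at positions 6744 and 3406 in the mutants, against 2167 and 3297 in the controls.

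By position, both mutants thus stood below both controls in 3 of the 8 constant regions. These were the border region of PCNA, the region in RpS18 at the edge of its window, and the inner dup region. The summit of the RpS18 region lay 1042 bp outside PCNA, so that region drops out where the summit must lie inside the window. In 0 regions did both stand above. Over the 10526 constant regions in windows of all protein-coding genes, both mutants stood below both controls in 24.6% and above in 16.7%. Mutant 1 stood last in 4 of the 8 regions, against 34.1% of all. With 8 regions at 6 genes these counts are not set apart from the background. The position of a peak counts the stronger peaks of its own list and does not depend on where the list ends, but it does move with the depth and signal of the library. The lists differ in length, so the order can change by share of the list. By share, both mutants also stood below both controls at Mcm6, and the background was not counted that way.

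**Figure D2:**
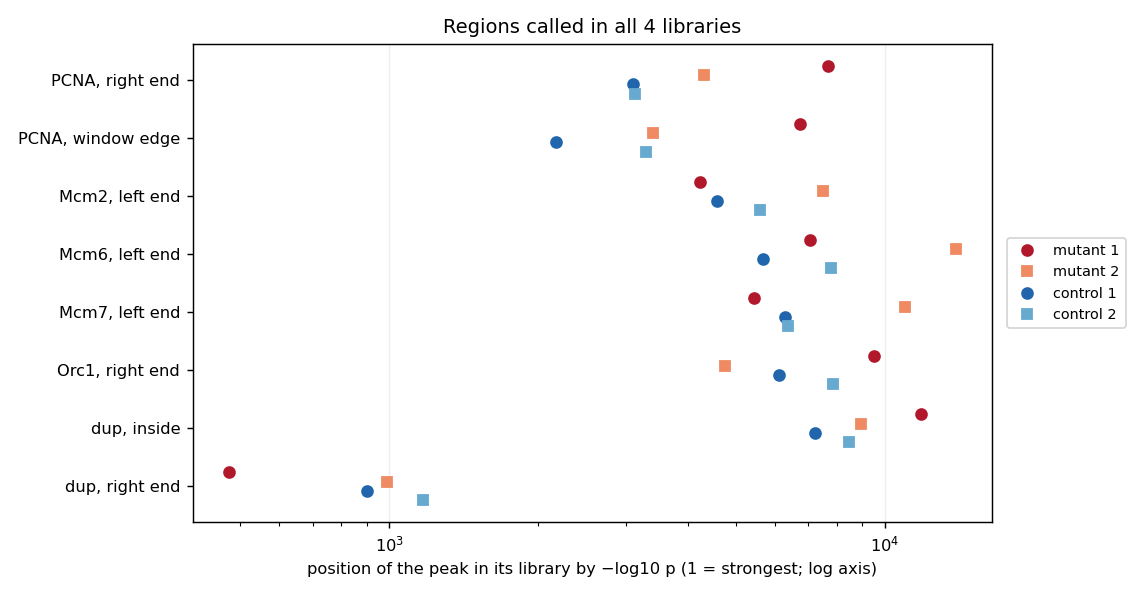
Position of each of the 8 regions called in all 4 libraries within each library's own list, ordered by −log10 p (horizontal log axis, 1 is the strongest peak), for mutants 1 and 2 and controls 1 and 2 (1 point per library). The right-end region of dup lies between positions 475 and 1171 in every library; at the 2 PCNA regions and the inner dup region both mutant points lie to the right of both control points.

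RnrL (2L:10325026-10327943) and RnrS (2R:11983145-11985393), the subunits of ribonucleotide reductase, had the fewest calls after Mcm3. RnrL had 1 peak in mutant 1, 596 to 501 bp before its left end, none in mutant 2, 1 in control 1, across its right border, and none in control 2. The fold enrichments were 3.91 in mutant 1 and 4.26 in control 1, and the 2 peaks did not overlap. RnrS had no peak in either mutant, 1 in control 1, inside the gene, with a fold enrichment of 2.96, and none in control 2. The nearest regions called in all 4 libraries lay 3032 bp to the left of RnrL, in CG5381, and 1948 bp to the right of RnrS, in CG34231 and rho-7.

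All but 1 of the constant regions shared a place near a gene end; the exception was the PCNA region at the window's far edge, in RpS18. Each of the 6 genes had a constant region within 500 bp of 1 end and none within 500 bp of the other, as did 86.9% of the protein-coding genes with such a region. In 5 of the 10 genes (PCNA, Mcm2, Mcm6, Orc1 and dup) the summit of a constant region lay within 50 bp of the gene's border, from 0 to 24 bp. This was so for 13.2% of protein-coding genes and for 3 of the 35 other replication genes below. The distance of 50 bp was chosen after these values were seen, so the count is a description. The annotation used here gives no strand, so the border of a gene's start cannot be told from that of its end. In the genes of the 5 border regions and Mcm7, the protein-coding neighbour on the called side was 74, 518, 413, 401 and 403 bp away for PCNA, Mcm2, Mcm6, Orc1 and Mcm7, and overlapped dup. On the other side it was 27, 18, 85 and 93 bp away for PCNA, Mcm2, Mcm6 and Mcm7 and overlapped Orc1.

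The peaks of the constant regions stood within the top 1.86% to 53.5% of their lists with a median of 21.1%, the 5 regions called in 2 or 3 libraries between 22.2% and 91.1%, and the 11 regions called in 1 library alone between 53.8% and 99.3%. The classes overlapped, and since a strong peak is more readily called in every list, this order is largely set by how the classes were formed. The constant regions were 101 to 157 bp long. Their median position in the list was the top 27.0% and 23.6% in mutants 1 and 2 and the top 17.5% and 20.0% in controls 1 and 2. For all 13474 constant regions of the genome it was 28.0% and 29.1% in the mutants, against 25.8% and 24.8% in the controls. Of the 11 regions of a single library, 4 came from mutant 1, 2 from mutant 2, 3 from control 1 and 2 from control 2, and 6 of them lay inside a gene of the set.

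Fewer peaks were called at the 10 genes in the mutants. The windows held 12 and 12 peaks in mutants 1 and 2, against 16 and 14 in controls 1 and 2, that is 12 ± 0 and 15 ± 1.41 (SD, n = 2 each). The groups did not overlap, and the difference of -3 peaks gave p = 0.333 in a two-sided exact permutation test, the smallest value that 2 against 2 allows. The average of the mutants came to 80.0% of that of the controls at these genes and to 86.9% over the whole lists. Peaks covered 1242 and 1207 bp in the mutants, against 1666 and 1445 bp in the controls, a difference of -331 bp (exact permutation test, p = 0.333). That is 78.7% of the control mean, beside 76.3% over the whole lists. With lists adjusted for depth, no peak in the windows was lost, so the differences were again -3 peaks and -331 bp. That adjustment scaled the recovered pileup and background by a constant and called no peaks anew. The adjusted lists still held 25527 and 25959 peaks in mutants 1 and 2, against 27656 and 27860 in controls 1 and 2. It therefore cannot show that the differences are free of depth. With lists of equal length the differences were -2 peaks and -260.5 bp. Both adjustments drop whole peaks and keep the borders of the rest, so the effect of depth on the width of a peak was not tested. When the window was narrowed to the gene span the number of peaks was 8.5 on average in both genotypes, and the difference in covered length turned to 45.5 bp, with averages of 604.5 bp in the mutants and 559 bp in the controls (exact permutation test, p = 0.667).

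A peak in the window was called at 8 and 7 of the 10 genes in mutants 1 and 2, against 9 and 7 in controls 1 and 2, a difference of -0.5 genes (two-sided exact permutation test, p = 1), which is smaller than the SD of either genotype (0.707 and 1.41 genes). Over all protein-coding genes the shares were 68.5% and 66.4% for the mutants, against 70.9% and 72.9% for the controls. Within 500 bp of a gene end, 6 and 7 genes were called in the mutants, against 8 and 7 in the controls (difference -1, exact permutation test, p = 0.667). The shares of all protein-coding genes called there were 49.5% and 53.7% for the mutants and 59.9% and 59.2% for the controls, lower in both mutants. The ranges of the genotypes overlapped for the windows and met at 7 genes for the gene ends. A peak in the window in all 4 libraries, at whatever place, was found at 7 of the 10 genes, against 55.3% of protein-coding genes, and a peak at a gene end in all 4 at 6, against 39.6%. A gene end was called in no library at Mcm3 and RnrS, against 29.5% of protein-coding genes, and a window peak lacking only in mutant 1 was found at 0 of the 10 genes, against 5.29%.

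**Figure D3:**
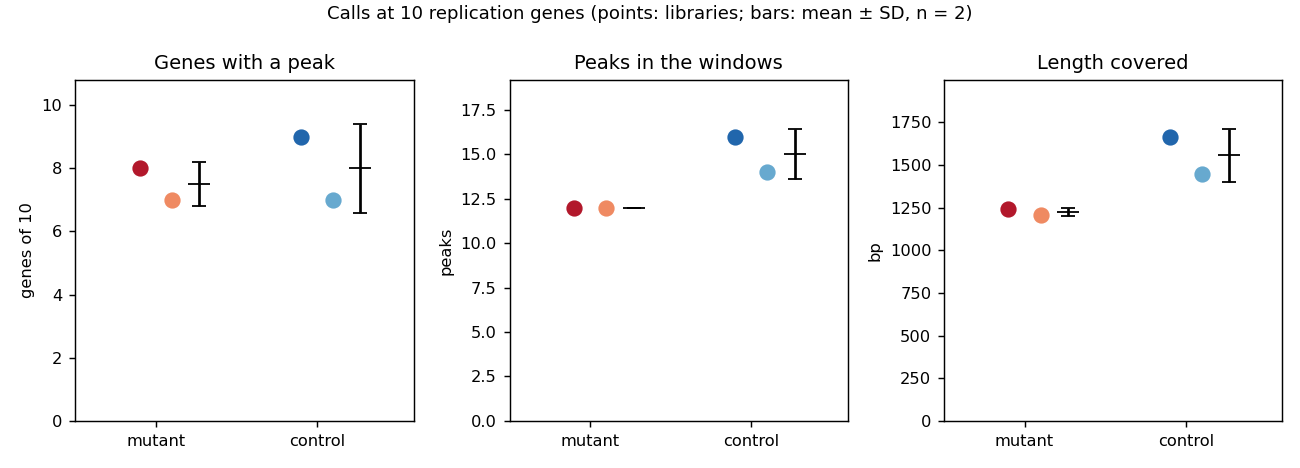
Number of the 10 genes with a peak in the window, number of peaks in the windows, and base pairs covered by them, for the mutant and control libraries (coloured points, 1 per library; black bars show mean ± SD, n = 2). The 2 mutants sit at 12 peaks and the controls at 16 and 14, while the numbers of genes overlap.

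No gene of the set was called in its window in both libraries of one genotype and in neither of the other, which was so for 0.747% of protein-coding genes in the mutant direction and 2.25% in the control direction. Among the 24 regions, 0 were called in both mutants and neither control, where the background was 1.66%, and 2 were called in both controls and neither mutant, where it was 6.16%. The 2 regions were that before Mcm5, above, and one 858 to 741 bp before Mcm7, inside dally, with fold enrichments of 4.38 and 3.37 in controls 1 and 2. Both were still called in the controls alone when the lists were shortened to equal length or adjusted for depth. A count of 2 of 24 is within 1 region of the background share.

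A fixed list of other replication genes was counted in the same way. Of its 35 genes of the origin complex, helicase loading, the GINS complex, the polymerases, the clamp loader, RPA, lagging strand synthesis, chromatin assembly and nucleotide supply, 19 (54.3%) had a region called in all 4 libraries in the window and 16 (45.7%) had one at a gene end, beside 38.0% of protein-coding genes for a gene end. RPA1 is one of them through the Mcm2 region. A gene end was called in both controls and neither mutant for 3 of the 35, Orc2, Prim2 and PolD1, and in both mutants and neither control for 0, where the shares of all protein-coding genes were 3.09% and 0.560%. Orc2, a further subunit of the origin complex, had 0 peaks in both mutants and 4 and 1 in controls 1 and 2. Prim2, a primase subunit, and PolD1, the catalytic subunit of polymerase delta, had at least 1 peak in the window in every library.

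A gene end was called in no library for 3 of the 35, against 29.5% of all protein-coding genes. They were Cdc45, the helicase cofactor, Prim1, the other primase subunit, and dnk, a deoxynucleoside kinase. For 10 of the 35 genes exactly 1 library had no peak of its own within 500 bp of a gene end. That library was mutant 1 for Orc3, Cdc6, Mcm10, PolE1, RPA3 and Ts, mutant 2 for PolE2 and Caf1-105, and control 2 for RPA2 and DNAlig1. Over all protein-coding genes 8.50% lacked a call at a gene end only in mutant 1, against 6 of 35 here and 1 of 10 (Mcm5) among the E2F targets. The same share for mutant 2 or control 2 was not counted over all genes. The depth of mutant 1 was the lowest of the 4 by the recovered background, and its part in these counts was not tested.

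**Figure D4:**
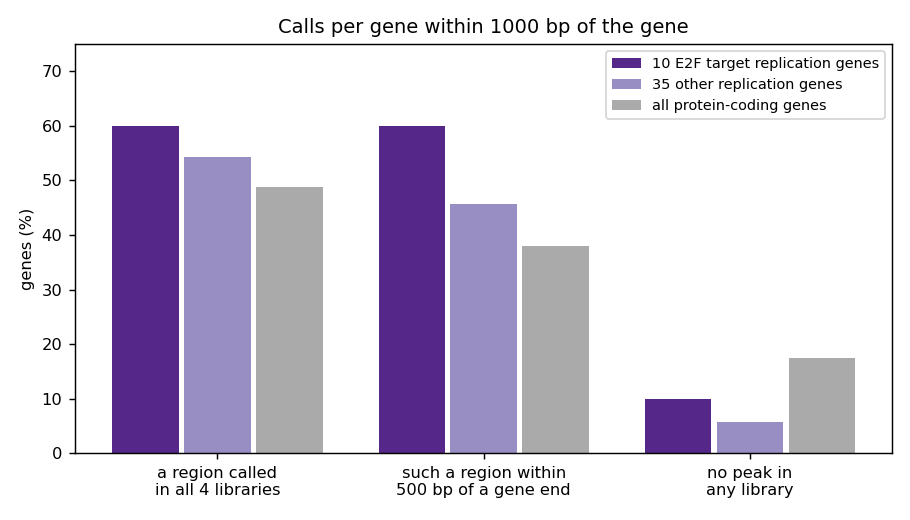
Share of genes (vertical axis, %) with a region called in all 4 libraries, with such a region within 500 bp of a gene end, and with no peak in any library, for the 10 E2F target replication genes, 35 other replication genes and all protein-coding genes (bars). For a region called in all 4 libraries, the shares are 60% of the E2F targets, 54.3% of the other replication genes and 48.8% of all genes.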

How the data were processed

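ATAC-seq was analysed in 4 libraries, 2 per genotype, with groups as in GEO's titles. Each library has its own peak list from the authors, so peaks were not called on pooled replicates. The submitters' processing notes name genome BDGP6, cutadapt 2.3, Bowtie2 2.4.1, Picard and MACS2 2.2.7.1; their settings, including any shift for the transposase cut, are not given in the sources used here. Each deposited peak has a fold enrichment (a ratio), a −log10 p and −log10 q against the library's own background, and a score, not used here. The lowest deposited −log10 q lies just above 2 in each list. Positions are counted from 1.

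Only peaks on 2L, 2R, 3L, 3R, 4 and X entered. Peaks sharing at least 1 bp were merged, and a merged region counted as called in each library that contributed a peak. Fold enrichments are printed for each library as the authors' values, with no test and no difference taken between lists. Genes came from RefSeq, assembly Release 6 plus ISO1 MT, which gives no strand; the start region planned was therefore 500 bp around either gene end. No sequence or motif was examined. Read depth is not stated: summit pileup and local background were solved from fold and p under a Poisson model (largest misfit 0.000896 in −log10 p, for −log10 p up to 250), the most frequent background being the depth proxy. On data simulated under the same model, 100% of pileups were recovered in each of 4 simulated libraries, which checks the calculation and not the model. Pileups are written as fragments, but the caller's settings, and so what was piled up, are not known. Identical intervals were 0.631% to 1.51% of a list between replicates, so the lists of the replicates are not copies of each other. Nothing in the labels says the libraries came from separate cultures, so p-values refer to these samples alone. Each p-value is the share of relabelings with a difference in means at least as large, and does not measure a spread.

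Values per library were compared by two-sided exact permutation tests over 6 labelings. The 10 genes are all named. Of the other replication genes, those named have a gene end called in both libraries of one genotype alone, in no library, or in all libraries but 1. Members and lists were chosen with earlier results of these data known. Python 3.11.15, numpy 2.4.6, pandas 2.3.3 and scipy 1.17.1 were used.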

Additional observations from a re-analysis of the deposited data

How the results depend on the processing

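Lists adjusted for depth and every alternative for the genes with a region called in all libraries were chosen after the data were seen. That count was 6 of 10 in the 4 settings leaving out 1 library, with −log10 q of at least 5, equal list length, adjusted depth, summits or a reciprocal overlap of 50%; it was 5 with a flank of 0 bp and 9 with 2000 bp. With a flank of 0 bp the difference in peaks was 0, that in covered length reversed to 45.5 bp, and 0 regions were specific to a genotype, as regions outside the genes are left out. With a flank of 2000 bp the difference in genes with a peak was 0, and 4 regions were specific (1 mutant-only, 3 control-only). Without 1 library, the difference in genes with a peak ranged from -1.5 to 0.5 (0 without mutant 2; reversed at 0.5 without control 1), that in genes called at an end from -1.5 to -0.5, in peaks from -4 to -2, and the difference in length covered lay between -441.5 and -220.5 bp. Genotype-specific regions then ranged from 4 to 7 (5 without mutant 1, 7 without mutant 2, 4 without control 1, 5 without control 2), since a lone library admits all its calls.

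Pairing the libraries by replicate number (a replicate block) left the differences the same, -3 peaks and -331 bp (exact sign-flip test, p = 0.5, the smallest that 2 pairs allow), -0.5 and -1 genes (p = 1 each). The labels do not say that equal numbers pair the libraries. Shallow libraries limit the weak regions most, and a missing call is not a closed site.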
